A study of Solanum lycopersicum with 24 samples.

Results

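The comparison described here sets tomato hairy roots that overexpress SlMYB92 against hairy roots carrying an empty vector, with 3 RNA-seq libraries in each group, 6 of the 24 libraries of the series. They were chosen by group name alone and not by any measured value. Hairy roots, which plant tissue forms after infection with Rhizobium rhizogenes, can be kept as root cultures, and all lines came from the cultivar M82. In the SlMYB92-OX group the coding sequence of SlMYB92, fused to a FLAG tag, is driven by the constitutive CaMV 35S promoter, so expression is not limited to the cell layer in which the native gene acts. The control carries the vector without a transgene. Levels in the other 6 groups are given beside each gene: SlMYB41 overexpression (SlMYB41-OX), SlWRKY71 overexpression (SlWRKY71-OX), the CRISPR/Cas9 knockouts of SlMYB41 and SlMYB92 (SlMYB41-KO, SlMYB92-KO), and knockout lines 4 and 5 of SlWRKY71 (SlWRKY71-KO4, SlWRKY71-KO5). All roots grew for 9 days in the dark on sucrose medium with cefotaxime, and each library came from the tips of 10 roots pooled, 1 cm long. The labels name 1 line per group here, so a group difference cannot be told apart from a difference between individual transformed lines, and the p-values measure only the spread between libraries of a line.

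SlMYB92 belongs to the R2R3-MYB transcription factors, which bind DNA through a pair of imperfect repeats. Its relatives in Arabidopsis switch on the synthesis of suberin, a polyester of long-chain fatty acids, glycerol and ferulic acid that makes cell walls impermeable. In tomato roots suberin is laid down in the exodermis, the outermost cortical layer. Its monomers are made by fatty acid elongases, by cytochrome P450 hydroxylases, by glycerol-3-phosphate acyltransferases (GPATs) that attach the acids to glycerol, and by a feruloyl transferase that adds the phenolic part. The question behind the comparison is what raising this factor does to the transcriptome.

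The deposited table gives locus identifiers only. The names used for 11 loci (the 3 targeted transcription factors and 8 loci of suberin, cutin, wax and phenylpropanoid synthesis) are those of the tomato literature as remembered, and the pairing was checked against no table. For the same reason the labelled tissue was not checked against root markers. The 6 libraries held 5768871 to 10085411 estimated counts (4852464 to 15372241 over all 24). Levels are in CPM, the count scaled to a common library size after TMM normalisation, and adjusted p is the Benjamini-Hochberg value of the edgeR quasi-likelihood test over all genes tested. Libraries are called by the number in their column name: 2, 3 and 4 for SlMYB92-OX and 2, 3 and 5 for the control. Across all groups 1 axis held 31.2% of the variance within groups. SlMYB92-OX library 3 and control library 2 lay towards one end of it, and the other 2 libraries of each group lay on the other side of zero. Correlations of log2 CPM were 0.956 and 0.961 between SlMYB92-OX library 3 and libraries 2 and 4, and 0.975 between libraries 2 and 4.

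SlMYB92 (Solyc05g051550) stood at 48.3, 87.6 and 60.6 CPM in SlMYB92-OX libraries 2, 3 and 4, against 0, 0 and 0.188 CPM in control libraries 2, 3 and 5. No library of the other 6 groups exceeded 0.423 CPM, so the 3 SlMYB92-OX libraries stood apart from the other 21. Counts were 1312 in SlMYB92-OX and 2 in the control, a ratio of 845 with a 95% counting interval of 233 to 6981 (adjusted p = 8e-08 in edgeR). Transgene reads fall on the same coding sequence as native reads, so both are counted together. The other targeted factors did not pass the test. SlMYB41 (Solyc02g079280), also an R2R3-MYB, had 1 count in each of the 3 SlMYB92-OX libraries and 0, 1 and 0 counts in the control libraries, against a mean of 11.1 CPM in SlMYB41-OX. SlWRKY71 (Solyc02g071130), a WRKY transcription factor, averaged 1.79 ± 0.474 CPM in SlMYB92-OX and 1.57 ± 0.432 CPM in the control (SD, n = 3 each), a log2 fold change of 0.21 (SE 0.78; adjusted p = 0.93 in edgeR).

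Among the 8 pathway loci, 7 passed the expression filter. With SlMYB92 overexpressed 5 of them rose, 0 fell and 2 stayed uncalled, while 2.02% of all 18297 genes tested were called higher and 1.26% lower. The 5 also had every SlMYB92-OX library above every control library, as did 13.1% of genes tested. The median log2 fold change was 4.84 over the 7 loci and 0.01 over all genes. The list was put together with earlier results of these data known, and its count is a description of these loci.

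**Figure D1:**
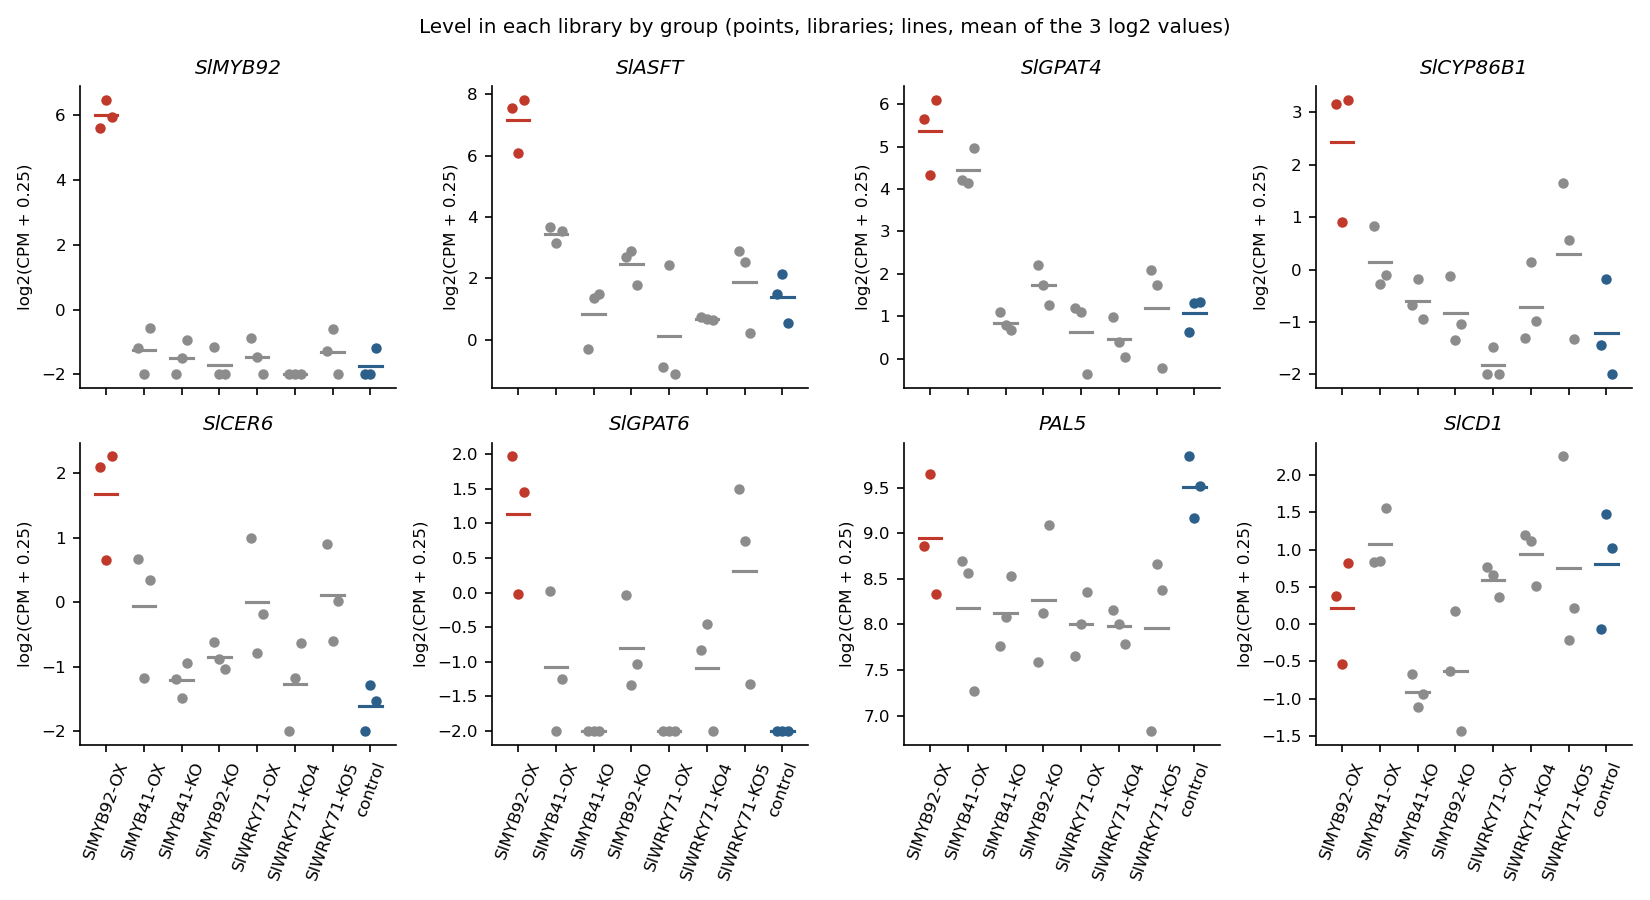
Level of SlMYB92 and the 7 tested pathway loci in each of 24 libraries, as log2(CPM + 0.25) on the vertical axis and group on the horizontal axis; points are libraries, in column-number order within a group, and lines are the mean of 3 log2 values. SlMYB92-OX is red, the control blue and the other groups grey. SlASFT stands at 67.4 CPM or more in SlMYB92-OX libraries and at 12.4 CPM or less in all others, whereas PAL5 overlaps between SlMYB92-OX and the control.

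SlASFT (Solyc03g097500) encodes the feruloyl transferase that in Arabidopsis joins ferulate to the omega-hydroxy acids of suberin. It stood at 187, 67.4 and 225 CPM in SlMYB92-OX libraries 2, 3 and 4, against 2.58, 4.13 and 1.22 CPM in the control libraries. The groups did not overlap, and the lowest SlMYB92-OX library was also above every library of the other 6 groups, the highest of which was SlMYB41-OX library 2 at 12.4 CPM. The log2 fold change was 5.97 (SE 0.76; adjusted p = 4.2e-05 in edgeR), and leaving out any 1 of the 6 libraries gave 5.57 to 6.38.

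SlGPAT4 (Solyc01g094700) encodes an acyltransferase whose Arabidopsis counterpart serves cutin synthesis. It stood at 50, 19.9 and 68.6 CPM in SlMYB92-OX, against 1.29, 2.22 and 2.25 CPM in the control. All 3 SlMYB92-OX libraries were above the control, but library 3 lay below SlMYB41-OX library 5, at 31 CPM. The log2 fold change was 4.58 (SE 0.54; adjusted p = 1.3e-05 in edgeR). Its paralog SlGPAT6 (Solyc09g014350), known from cutin synthesis in tomato fruit, stood at 3.66, 0.737 and 2.48 CPM in SlMYB92-OX and had no count in any control library. SlGPAT6 was at least 18.9-fold higher, taking 3 counts over the control group as the floor (adjusted p = 0.024 in edgeR). That call rested on few counts, 44 in all, and was lost in 5 of 6 fits without 1 library, at adjusted p from 0.065 without SlMYB92-OX library 4 to 0.095 without control library 5; it held without SlMYB92-OX library 3 (0.023). The third member, SlGPAT5 (Solyc04g011600), whose Arabidopsis counterpart is the root suberin acyltransferase, was below the filter at 0.872, 1.62 and 3.85 CPM in SlMYB92-OX and 0.703, 0.159 and 0.282 CPM in the control. The SlGPAT5 libraries did not overlap in CPM, though SlMYB92-OX library 2 held 5 counts and control library 2 held 6. The fit without a filter gave a log2 fold change of 2.42 (SE 0.90, adjusted p = 0.19 in edgeR).

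SlCYP86B1 (Solyc02g014730) belongs to a P450 family that in Arabidopsis hydroxylates very-long-chain acids for suberin. It stood at 8.72, 1.62 and 9.21 CPM in SlMYB92-OX, against 0.117, 0.635 and 0 CPM in the control. The log2 fold change was 4.84 (SE 0.99; adjusted p = 0.0072 in edgeR), and the value rested on few control counts. It was 4.13 without control library 5, where the call was lost (adjusted p = 0.054), and 6.53 without control library 3. SlCER6 (Solyc02g085870) encodes a 3-ketoacyl-CoA synthase that elongates fatty acids for cuticular wax in tomato. It stood at 4.01, 1.33 and 4.54 CPM in SlMYB92-OX, against 0, 0.159 and 0.094 CPM in the control. With 65 counts in SlMYB92-OX and 2 in the control, the SlCER6 ratio was 41.8 with a 95% counting interval of 11.1 to 353 (adjusted p = 0.0024 in edgeR). Both loci were thus near the detection limit in the control and at a few CPM in SlMYB92-OX, well below SlASFT.

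SlCD1 (Solyc11g006250), the cutin synthase that links cutin monomers outside the cell in tomato fruit, stood at 1.05, 0.442 and 1.51 CPM in SlMYB92-OX and 0.703, 2.54 and 1.79 CPM in the control. PAL5 (Solyc09g007920), a phenylalanine ammonia-lyase at the entry to phenylpropanoid synthesis, stood at 466, 802 and 322 CPM in SlMYB92-OX and 921, 577 and 733 CPM in the control. The groups overlapped for both loci. The log2 fold change was -0.71 for SlCD1 (SE 0.67; adjusted p = 0.65 in edgeR) and -0.49 for PAL5 (SE 0.43; adjusted p = 0.62 in edgeR). PAL5 has close copies in tomato, its estimates were not whole numbers in any of the 24 libraries, and its level is uncertain to that extent.

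Within SlMYB92-OX all 5 called loci were lowest in library 3, the library with the most SlMYB92. SlASFT, SlGPAT4, SlCYP86B1 and SlCER6 were highest in library 4. The order was not particular to called loci: uncalled SlCD1 was also lowest in library 3 (0.442 CPM) and highest in library 4 (1.51 CPM). SlGPAT5, below the filter, was lowest in library 2 (0.872 CPM). SlMYB92-OX library 3 lay on the other side of the within-group axis from libraries 2 and 4, and the part of that axis in these lower values was not tested. PAL5 ran the other way and was highest in SlMYB92-OX library 3 and, among controls, in library 2, both on that side. With 3 libraries a group no correlation was computed. With the position on the axis as a covariate the 5 loci kept their calls, with an adjusted p of at most 0.0097 in edgeR, for SlGPAT6. The axis was computed after each group's mean was removed. As a covariate it could therefore hardly move a difference between groups, and the kept calls are no test of its part.

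**Figure D2:**
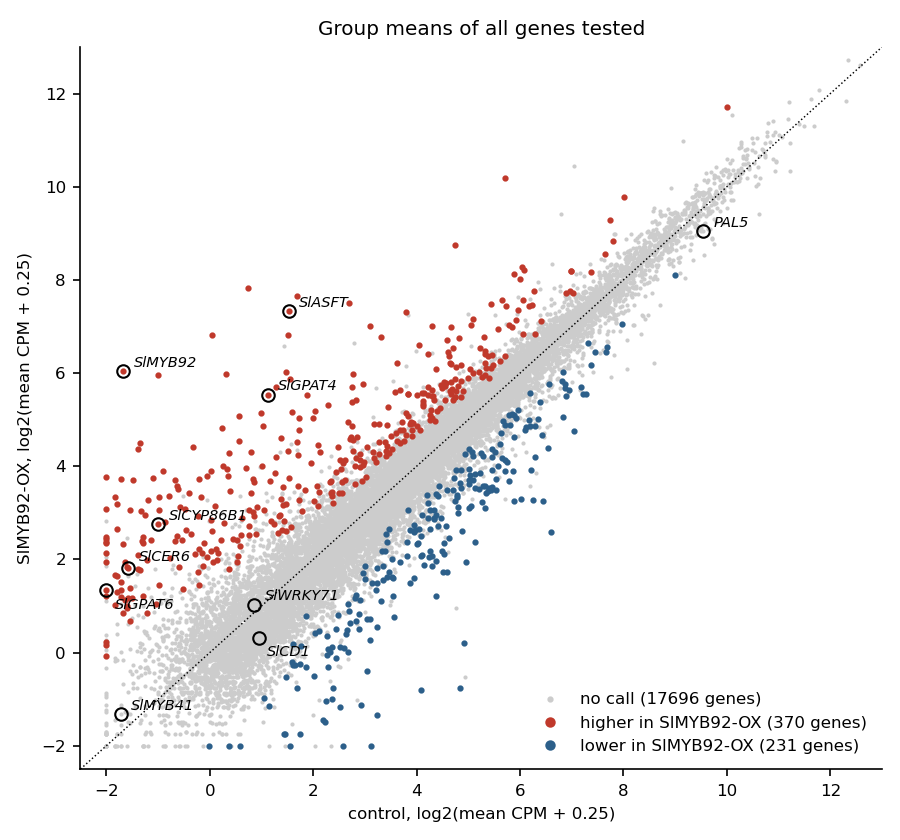
Mean level of each of 18297 tested genes in SlMYB92-OX (vertical) against the control (horizontal), both as log2(CPM + 0.25); the dotted line marks equal levels, red and blue points are genes called higher and lower in SlMYB92-OX, and circles mark the named loci. SlMYB92 and SlASFT lie far above the line, while PAL5, SlCD1, SlWRKY71 and SlMYB41 lie among the uncalled genes.

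Comparing SlMYB92-OX directly with each of the other 6 groups leaves the control out but keeps the same SlMYB92-OX libraries. Genes called higher made up 0.41% against SlMYB41-OX, 3.51% against SlMYB41-KO, 4.47% against SlMYB92-KO, 4.1% against SlWRKY71-OX, 0.913% against SlWRKY71-KO4 and 0.525% against SlWRKY71-KO5. Counting both directions, the shares in the same order were 0.552%, 5.79%, 7.77%, 9.11%, 1.6% and 0.82%. SlASFT was called higher in 6 of 6 comparisons, with log2 fold changes from 3.88 (SE 0.67) against SlMYB41-OX to 6.87 (SE 0.81) against SlWRKY71-KO4 (adjusted p of 0.0052 and 2.7e-05 in edgeR). SlGPAT4 was called in 5 of 6, the exception being SlMYB41-OX, with means of 46.2 ± 24.6 CPM in SlMYB92-OX and 22.2 ± 7.65 CPM in SlMYB41-OX (log2 fold change 1.05, SE 0.44; adjusted p = 0.42 in edgeR).

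SlCYP86B1 was called in 4 of 6 comparisons, SlCER6 in 3 and SlGPAT6 in 2. The exceptions always included SlMYB41-OX and SlWRKY71-KO5. Both SlGPAT6 calls were against groups without a count at this locus, SlMYB41-KO and SlWRKY71-OX. Against the groups with counts it was uncalled (adjusted p of 0.16 to 0.81 in edgeR). In SlWRKY71-KO5, SlGPAT6 averaged 1.39 ± 1.21 CPM, SlCYP86B1 1.43 ± 1.39 CPM and SlCER6 0.927 ± 0.619 CPM (SD, n = 3), the highest means outside SlMYB92-OX for these 3 loci. The log2 fold changes against SlWRKY71-KO5 were 0.71 (SE 0.92) for SlGPAT6, 2.18 (SE 0.81) for SlCYP86B1 and 1.78 (SE 0.71) for SlCER6 (adjusted p of 0.81, 0.29 and 0.32 in edgeR). PAL5 was uncalled in 6 of 6, with log2 fold changes from 0.65 to 1.06: its mean was 530 ± 246 CPM in SlMYB92-OX, 254 to 339 CPM in those groups and 744 ± 172 CPM in the control. SlCD1, also uncalled in 6 of 6, ran from -1.01 against SlWRKY71-KO5 to 1.81 against SlMYB41-KO.

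**Figure D3:**
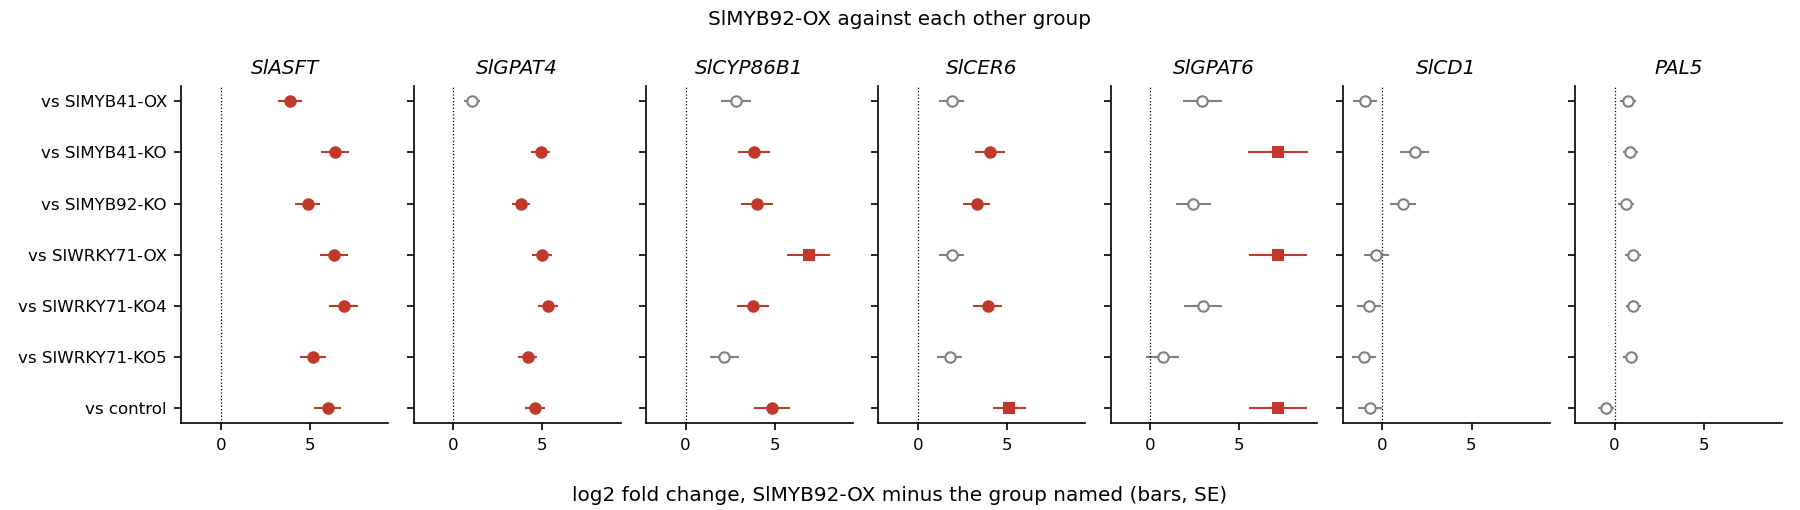
Log2 fold change of 7 pathway loci in SlMYB92-OX over each other group, with its standard error as a bar; filled red symbols passed the edgeR quasi-likelihood test at an adjusted p under 0.05, and open grey ones did not. Squares mark comparison groups with at most 3 counts, where the fitted size depends on the prior count. SlASFT is filled in all 7 rows and PAL5 and SlCD1 in none.

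Across the genome 370 genes rose and 231 fell against the control, 3.28% of those tested. Computed from pooled counts with the floor of 3 counts a group, the median change was 3.87-fold among the genes that rose, of which 58 changed less than 2-fold, 133 by 2- to 4-fold, 96 by 4- to 16-fold and 83 by 16-fold or more. Among the genes that fell the median was 3.41-fold lower, with 30, 114, 71 and 16 genes in the same classes. Large changes were thus mostly gains. Genes with no count in the low group were few, 13 of those that rose and 6 of those that fell. The genes that rose had a median of 19.9 CPM in SlMYB92-OX, and 48 of them exceeded 100 CPM. Summed, they took 2.23%, 1.99% and 2.5% of SlMYB92-OX libraries 2, 3 and 4, against 0.717%, 0.716% and 0.654% of control libraries 2, 3 and 5. The genes that fell took 0.321%, 0.345% and 0.301% of the SlMYB92-OX libraries, against 0.823%, 0.891% and 0.836% of the control libraries. These sums describe the calls and are not a further test. With any 1 library left out 261 to 428 genes were called, against 601 with all, and fewest without SlMYB92-OX library 4. The total was 292 without SlMYB92-OX library 2 or control library 5, and 314 without control library 3. Each of these fits also has a smaller group, and the part of that in the lower totals was not tested.

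The called genes were chosen by SlMYB92-OX against the control, which favours these groups as the extremes, so their levels in all 8 groups are a description. Of the 370 that rose, SlMYB92-OX had the highest mean of the 8 groups for 213 and SlWRKY71-KO5 for 72, and the control had the lowest mean for 184. Over all 18297 genes tested these shares were 10.6%, 14.1% and 13.7%. Median levels of the 370 genes were 19.9 CPM in SlMYB92-OX, 13.2 in SlWRKY71-KO5, 10.7 in SlWRKY71-KO4, 10.3 in SlMYB41-OX, 7.86 in SlMYB41-KO, 6.98 in SlMYB92-KO, 6.77 in SlWRKY71-OX and 4.82 in the control. Over all genes tested, called or not, 116 (0.634%) had a SlMYB92-OX mean at least 2 times that of each other group, and 79 of these were among the 370. All 3 SlMYB92-OX libraries were above the other 21 for 120 genes (0.656%), 75 of them among the 370. Of the 231 that fell, SlMYB92-OX had the lowest mean for 151 and the control the highest for 117, against 11.2% and 10.3% of all genes tested. Their medians were 6.02 CPM in SlMYB92-OX, 8.68 to 16.9 CPM in the 6 other groups and 20.4 CPM in the control. When the mean of the 5 groups that target other genes replaced the control, 476 genes were called (2.6% of those tested), 362 higher (1.98%) and 114 lower (0.623%). Of those called against the control, 159 were called higher and 48 lower there too. SlASFT, SlGPAT4, SlCYP86B1 and SlCER6 were called again, with log2 fold changes of 5.72, 4.08, 3.90 and 2.71 (adjusted p of at most 0.0016 in edgeR). SlGPAT6 had no count in SlMYB41-KO and SlWRKY71-OX, so its value against this mean is set by the prior count and is not given.

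**Figure D4:**
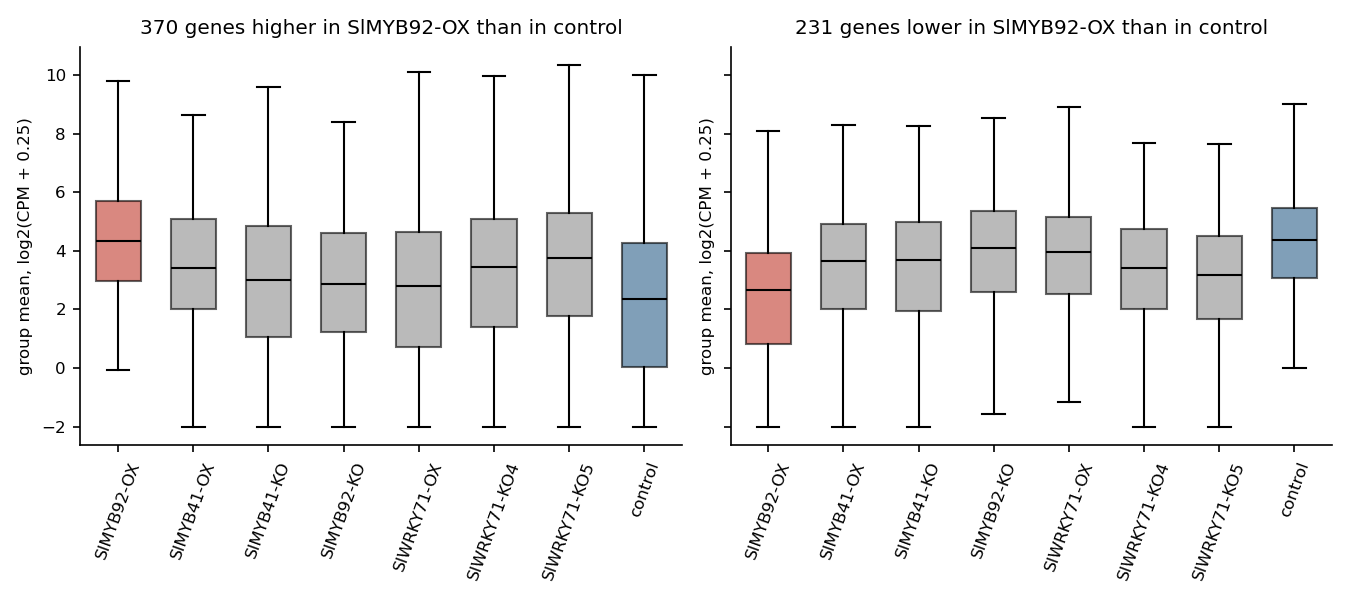
Group means of the 370 genes called higher (left) and 231 called lower (right) in SlMYB92-OX than in the control, as log2(CPM + 0.25), for each of 8 groups; boxes span the quartiles, the line is the median and whiskers reach the farthest gene within 1.5 box lengths. The genes were chosen by the difference between SlMYB92-OX and the control, and the medians of the other groups lie between those of these groups. That order does not hold gene by gene: SlMYB92-OX and the control were both the extremes for 76 of the 370 and 65 of the 231 genes. The share over all genes tested was not computed.

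Apart from SlMYB92, the fitted log2 fold change was highest and lowest in loci that no table used here names. Each of the 4 described here had no count in one of the compared groups, so its fitted value and its rank depend on the prior count. Other called loci with a few counts in that group had changes as large as the folds given. Solyc08g008540 stood at 10.1, 19.6 and 10.6 CPM in SlMYB92-OX and had no count in the control, a rise of at least 115-fold (adjusted p = 3.6e-05 in edgeR). Its means in the other groups ran from 2.05 CPM in SlWRKY71-KO5 to 24.1 CPM in SlMYB41-OX. The control alone had no count in any library, though SlWRKY71-KO5 libraries 2 and 3 held 1 and 4 counts. Solyc07g042335 stood at 7.67, 9.44 and 7.43 CPM in SlMYB92-OX and was absent from the control counts, a rise of at least 69.5-fold (adjusted p = 5.7e-05 in edgeR). All 3 overexpression groups had counts at this locus, with means of 8.18 ± 1.1 CPM in SlMYB92-OX, 8.44 ± 3.91 CPM in SlMYB41-OX and 8.8 ± 3.81 CPM in SlWRKY71-OX (SD, n = 3 each), while the 4 knockout groups had at most 0.192 CPM in any library. Set against SlMYB41-OX it gave a log2 fold change of -0.03 (SE 0.45), and against SlWRKY71-OX one of -0.11 (SE 0.45), neither called (adjusted p of 0.997 and 0.908 in edgeR).

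On the side that fell, Solyc09g064273 had no count in SlMYB92-OX and stood at 11.4, 9.21 and 4.6 CPM in control libraries 2, 3 and 5, at least 52.8-fold lower (adjusted p = 0.0014 in edgeR; not called with DESeq2, adjusted p = 0.4). It was at 0 in every library of the other groups except SlWRKY71-OX, at 3.55 ± 1.41 CPM. Solyc09g009560 had no count in SlMYB92-OX and stood at 7.38, 5.4 and 4.42 CPM in the control, at least 37.3-fold lower (adjusted p = 0.00016 in edgeR). SlMYB41-OX also had no count, and the other groups had means from 0.0368 CPM in SlWRKY71-OX to 3.02 CPM in SlMYB41-KO. None of these 4 loci was on or off in SlMYB92-OX alone.

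The genes that fell were unevenly placed by the chromosome number in their identifier. On chromosome 12, 49 of 1209 tested genes fell (4.05%), against 0.245% to 1.54% on chromosomes 1 to 11, while genes that rose made up 1.37% to 2.69% on chromosomes 1 to 12. In identifier order, runs 17 to 22 of 50 tested genes on chromosome 12 held 29 of the 49, with a median log2 fold change of -0.53 over their 300 genes and 0.02 over all other genes. The runs were picked after their values were seen. The median of these 300 genes was 9.94 CPM in SlMYB92-OX, 10.6 to 12.1 CPM in the 6 other groups and 15 CPM in the control, the highest of the 8. Outside them 202 of 17997 genes fell (1.12%).

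**Figure D5:**
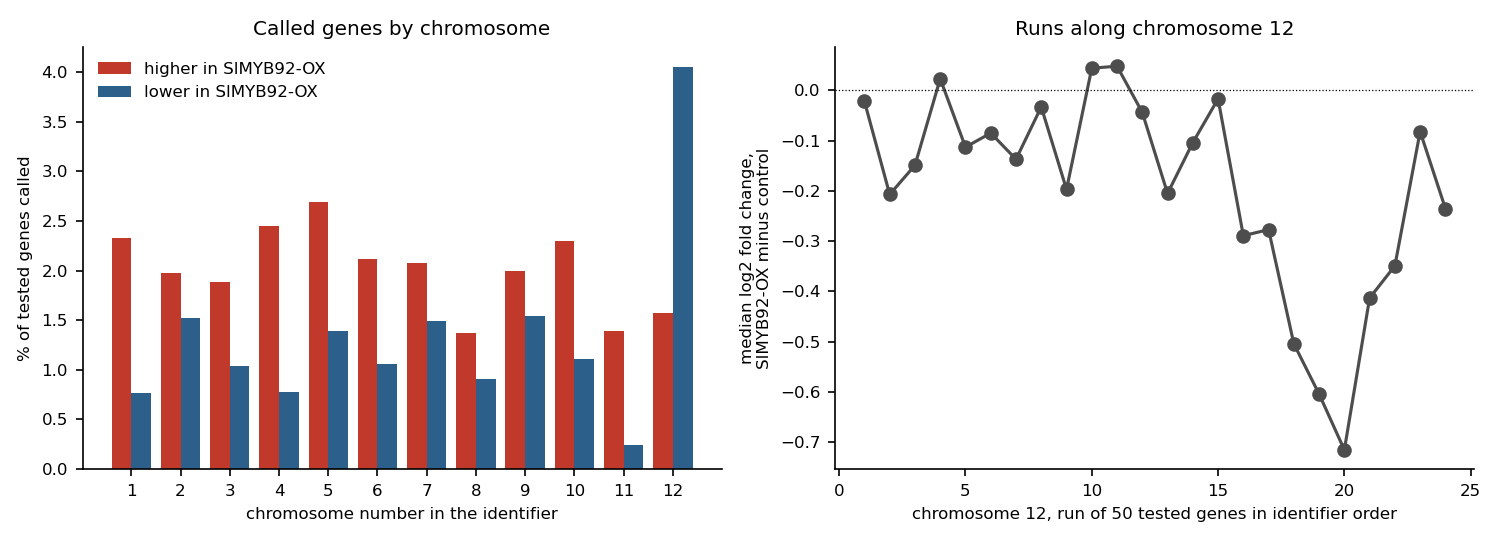
Left, share of tested genes called higher (red) and lower (blue) in SlMYB92-OX than in the control, by the chromosome number in the identifier. Right, median log2 fold change (SlMYB92-OX minus control) in successive runs of 50 tested genes along chromosome 12 in identifier order, reaching -0.715 in run 20.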

How the data were processed

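Levels were measured by poly(A) RNA-seq with random-primed libraries that do not mark strand, read as pairs of 75 bp, per the labels' protocols. Estimated counts, 1 transcript a locus, are what the authors deposited. The submitters' processing notes name kallisto 0.46.2 and Trim Galore 0.6.6 and no annotation. Non-whole values made up 6.18% (tolerance 1e-09) and were rounded before testing. Reads of genes that overlap in antisense are pooled by such libraries. Columns were assigned to groups by name; the labels give 3 samples a group, the protocol 4 replicates. No pair of libraries in the 2 groups agreed within sampling noise (chi-square per degree of freedom of 8.88 or more).

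Of 34688 loci, 18297 passed filterByExpr. All 24 libraries were scaled by TMM and entered 1 edgeR quasi-likelihood fit with a mean per group (edgeR 4.0.16, limma 3.58.1, R 4.3.3), and Benjamini-Hochberg adjusted p-values under 0.05 over all genes tested were called. The common dispersion was 0.0789. Standard errors are the log2 fold change divided by the square root of F. Where a group had no count, folds are bounds against 3 counts over the group. With 1 to 3 counts they are ratios with exact 95% intervals. The intervals cover counting error only. DESeq2 1.42.0 was an alternative.

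Named genes were the 3 targets, 8 loci named from memory and, as 0 of 34688 identifiers matched the reference table, the 2 called loci with the highest and the 2 with the lowest fitted log2 fold change whose libraries did not overlap. For the same reason the lists planned by product name were not filled. The comparison, loci and lists were chosen with earlier results of these data known. The comparisons with 6 other groups, the shares over all genes and the chromosome runs were added after the data were seen.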

Additional observations from a re-analysis of the deposited data

How the results depend on the processing

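The total of 601 genes (370 higher, 231 lower) became 963 with DESeq2 (416 lower), 139 when tested with glmTreat against a log2 fold change of 1 (108 higher, 31 lower), and 365 lower with only the 2 groups fitted. With the mean of 5 groups that target other genes as reference 114 were lower. Leaving out 1 library gave 261 to 428 genes in all, 180 to 274 higher and 62 to 159 lower. With the within-group axis as covariate, an alternative chosen after seeing the data, 1371 genes were called (740 higher, 631 lower), including the 601; the axis was computed from the residuals of the same libraries. A replicate block on the number in the column name gave 379 genes (230 higher, 149 lower). The labels number replicates differently. Deviations of libraries 2 and of libraries 3 in the 2 groups correlated at -0.42 and -0.32. Whether libraries of the same number belong together was not tested. Among uncalled loci the sign turned for SlMYB41 (-1.33) and PAL5 (0.92) with the 5 groups as reference, and for SlWRKY71 there (-0.67), under the block (-0.23), and without control library 5 (-0.01) or SlMYB92-OX library 4 (-0.04), within a range of -0.04 to 0.43 over the fits without 1 library. The 5 groups include SlWRKY71-OX and SlMYB41-OX. SlWRKY71 was at -3.75 against SlWRKY71-OX and at -0.18 to 0.71 against the other 4 groups. SlMYB41 was at -6.04 against SlMYB41-OX and at -2.01 to 1.58 against the other 4, which held 1 to 12 counts each. The part of the overexpressors in these turns of sign was not tested. SlGPAT6 lost its call with glmTreat (adjusted p = 0.082). With only the 2 groups fitted, SlMYB41, SlGPAT6 and SlCER6 fell below the filter and gave no value. Against the 5 groups, SlGPAT6 is set by the prior count, Solyc08g008540 was at 0.64 and lost its call, and the fall of Solyc09g064273 and Solyc09g009560, each at 0 in 1 or more of those groups, could not be estimated. Apart from loci below the filter or set by the prior count, the cause of the moves was not tested. Depth limits the loci under about 1 CPM in the control, where 1 to 5 counts set the fold.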
